A study of Mus musculus with 16 samples.

Results

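The 10 core circadian clock genes *Arntl*, *Npas2*, *Clock*, *Per1*, *Per2*, *Per3*, *Cry1*, *Cry2*, *Nr1d1* and *Nr1d2* were followed in mouse quadriceps RNA-seq. They were chosen by their symbols in the deposited count table, each symbol matched 1 row, and they are 10 of the 41388 genes listed. The 4 groups were wild-type mice (WT), WT mice given tamoxifen (WT + TAM), *Mtm1*-/- mice (*Mtm1* KO) and *Mtm1*-/- mice given tamoxifen (*Mtm1* KO + TAM). All mice were on a C57BL/6 background and are labelled with an age of 36 days. Tamoxifen, a modulator of the estrogen receptor, was mixed into the chow at 40 mg/kg/day from 21 days of age. The *Mtm1* KO is a germline loss of exon 4 of a phosphoinositide phosphatase gene and is not restricted to muscle. It models X-linked myotubular myopathy, a severe weakness of skeletal muscle. The study used 14 libraries, which are the basis of every value below unless stated. They carry the replicate numbers 2 to 4 (WT), 5 to 8 (WT + TAM), 9 to 11 (*Mtm1* KO) and 13 to 16 (*Mtm1* KO + TAM). No source used here gives the hour of tissue collection or the hours of light.

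The molecular clock is a feedback loop that runs in nearly every cell, skeletal muscle fibers included. ARNTL (also called BMAL1) pairs with CLOCK or with its relative NPAS2 and switches on genes that carry E-box sequences, among them *Per* and *Cry* genes and *Nr1d1*. PER and CRY proteins return to the nucleus and repress ARNTL and CLOCK. NR1D1 and NR1D2, the REV-ERB nuclear receptors, repress *Arntl* through ROR elements, so *Arntl* and the *Per* genes peak at opposite times of day. The PAR bZIP factors DBP, TEF and HLF are outputs of the loop that activate genes with D-boxes, and NFIL3 represses the same sites.

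Promoter windows of 300 bases (250 before and 50 after the annotated start, RefSeq, GRCm38.p6) were held for 9 of the 10 genes, 13 windows in all. They were searched on both strands for the letters of these elements. The matches are shown because they carry the letters of elements named above, and whether anything binds them in this muscle was not tested. The windows of *Npas2*, *Clock* and *Nr1d2* held no match. Each is printed along its gene's strand with the motif in capitals, and where AACGTG is printed the searched letters CACGTT lie on the other strand.
*Per1* E-box: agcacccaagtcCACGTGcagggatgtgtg
*Cry1* E-box: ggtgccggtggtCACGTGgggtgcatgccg
*Cry1* E-box-like: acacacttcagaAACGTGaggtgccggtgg
*Cry2* E-box-like: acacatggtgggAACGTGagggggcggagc
*Nr1d1* E-box-like: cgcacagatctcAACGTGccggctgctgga
*Arntl* ROR element: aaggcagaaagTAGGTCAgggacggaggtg
*Per3* D-box pair: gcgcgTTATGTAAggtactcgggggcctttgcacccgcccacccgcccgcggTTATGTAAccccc

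The *Per1* stretch lies at chr11:69098771-69098800 on the plus strand, with the E-box 166 bases before the start. The *Cry1* stretches lie at chr10:85185097-85185126 and chr10:85185116-85185145 on the minus strand, 60 and 79 bases before the start. The *Cry2* match is 166 bases upstream at chr2:92434218-92434247, and the *Nr1d1* match is 28 bases upstream at chr11:98775388-98775417, both on the minus strand. The *Arntl* ROR element lies 31 bases after the start at chr7:113207530-113207559 on the plus strand. The *Per3* stretch at chr4:151044811-151044875 on the minus strand holds 2 D-boxes, 205 and 158 bases upstream. Of all 32851 promoter windows of this length, 7.15% hold the E-box CACGTG, 4.68% the E-box-like CACGTT, 2.61% the ROR element TAGGTCA and 0.938% the D-box TTATGTAA. The cAMP response element TGACGTCA (1.79% of windows) and an estrogen response element searched as GGTCA and TGACC with 3 bases between them (0.07%) were not matched in the windows of these genes.

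The 14 libraries held 25702605 to 29847222 counts each. On the RPKM scale, which is reads scaled to library size and gene length, *Mtm1* was at 0.911 ± 0.0235 in WT (SD, n = 3), 0.970 ± 0.189 in WT + TAM (n = 4), 0.192 ± 0.0176 in *Mtm1* KO (n = 3) and 0.207 ± 0.0506 in *Mtm1* KO + TAM (n = 4), so it followed the labels. The library labelled WT replicate 1 went against its label, with *Mtm1* at 0.211 RPKM. This library and *Mtm1* KO replicate 12 were left out of the study's analysis with no reason stated. Muscle fiber markers (*Ckm*, *Acta1*, *Myh4*, *Mylpf*, *Tnnt3*) summed to 81665 to 98585 RPKM in WT and 81840 to 88868 in WT + TAM. They summed to less in the knockouts, 59614 to 65625 RPKM in *Mtm1* KO and 54002 to 73832 in *Mtm1* KO + TAM. In *Mtm1* KO against WT all 5 had negative log2 fold changes, with a median of -0.81 against 0.023 over all genes, and 0 passed an adjusted p of 0.01. The nervous tissue markers *Snap25* and *Syt1* summed to at most 0.055 RPKM. Immune cell markers (4 of the 5 fixed were in the table) summed to 5.09 to 13.2 RPKM without the knockout and to 15.4 to 43.2 RPKM with it, and fat cell markers to 65.0 to 1349 RPKM, with 65.0 to 900 within WT. Red blood cell markers summed to 74.1 to 369 RPKM, endothelial to 33.6 to 67.0, fibroblast to 427 to 1115 and satellite cell to 0.509 to 1.999. Among these markers, *Ckm* (-0.87) and *Myh4* (-1.24) fell in *Mtm1* KO + TAM against WT + TAM, and *Myh4* (-1.37) and *Cdh5* (-1.01) fell in *Mtm1* KO + TAM against WT, as log2 fold changes. Their part in the clock gene values was not tested. In whole muscle, fewer cells of a type and less RNA per cell cannot be told apart. Counts were scaled by TMM, which centers most genes on no change. With library totals alone as the scale, the median log2 fold change over genes moved by 0.311 in *Mtm1* KO against WT, by 0.279 in *Mtm1* KO + TAM against WT + TAM and by 0.279 in *Mtm1* KO + TAM against WT. A change in a clock gene is therefore relative to most other genes.

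The REV-ERB genes were the most abundant of the 10 on the RPKM scale. In WT, *Nr1d1* was at 36.9 ± 5.98 RPKM (SD, n = 3), *Nr1d2* at 17.7 ± 3.03 and *Per1* at 7.34 ± 3.05. *Arntl* came next at 5.78 ± 2.16. *Cry1* (3.61 ± 0.652 RPKM) overlapped with both *Cry2* (3.83 ± 0.175) and *Clock* (3.42 ± 0.0915), which did not overlap with each other. The ranges overlapped for *Per3* (1.04 ± 0.484), *Npas2* (0.650 ± 0.195) and *Per2* (0.610 ± 0.317). *Per1* and *Arntl* also overlapped, whereas *Nr1d1* and *Nr1d2*, *Nr1d2* and *Per1*, *Arntl* and *Cry2*, and *Clock* and *Per3* did not. *Arntl* moved from the fourth place in WT to the ninth in *Mtm1* KO + TAM, where it was at 2.19 ± 1.26 RPKM (n = 4). That was below *Per2* at 3.09 ± 0.591 and *Per3* at 3.03 ± 1.07, whose ranges overlapped with its own. All 10 genes passed the filter on low counts in every comparison, and the lowest count of any was 4, for *Npas2* in WT + TAM replicate 6.

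**Figure D1:**
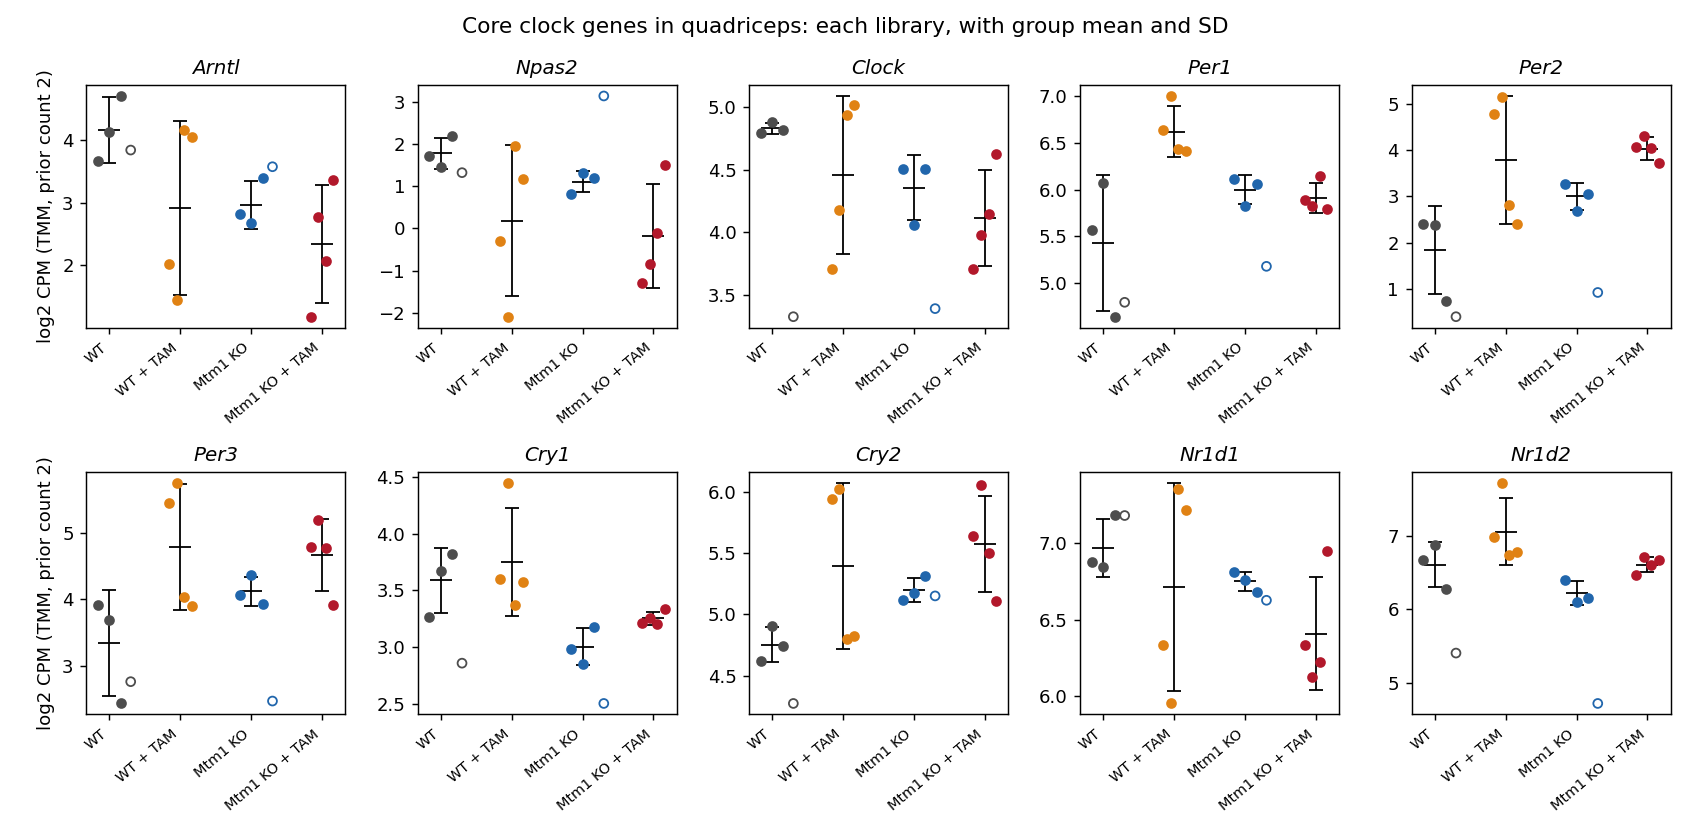
Level of each clock gene in every library as log2 CPM (CPM is counts scaled to library size, here with TMM factors and a prior count of 2; the scale differs between panels), by group. Filled points are the 14 libraries of the study, bars are the group mean and SD, and open points are the library labelled WT replicate 1 and *Mtm1* KO replicate 12; the WT + TAM libraries fall into a high and a low pair for *Arntl*, *Per2*, *Per3*, *Cry2* and *Nr1d1*.

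*Arntl* (ENSMUSG00000055116, chr7:113207465-113314126, plus strand), the core activator of the loop, was highest in WT. It was at 12.6, 17.4 and 25.9 CPM in WT replicates 2, 3 and 4. The *Mtm1* KO replicates 9, 10 and 11 had 7.01, 6.31 and 10.4 CPM. Every WT library was above every *Mtm1* KO library. With tamoxifen, *Arntl* was at 3.97, 2.65, 17.8 and 16.5 CPM in WT + TAM replicates 5 to 8 and at 2.197, 6.73, 4.13 and 10.2 CPM in the knockout replicates 13 to 16. The WT + TAM libraries split into a low pair (5 and 6), below all others but *Mtm1* KO + TAM replicate 13, and a high pair (7 and 8) within the WT range. All *Mtm1* KO + TAM libraries were below all WT libraries.

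*Npas2* (ENSMUSG00000026077, chr1:39193731-39363236, plus strand), which can stand in for CLOCK, was the least abundant activator. WT libraries 2 to 4 had 3.19, 2.67 and 4.47 CPM of *Npas2*, and the untreated knockouts 9 to 11 had 1.69, 2.39 and 2.23 CPM. These groups did not overlap. The treated WT libraries 5 to 8 were at 0.742, 0.163, 3.801 and 2.18 CPM, and the treated knockouts 13 to 16 at 0.338, 0.487, 0.855 and 2.76 CPM. The 5 libraries under 1 CPM were WT + TAM 5 and 6 and *Mtm1* KO + TAM 13 to 15, with 4 to 30 counts each.

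*Clock* (ENSMUSG00000029238, chr5:76209868-76304792, minus strand), the usual partner of ARNTL, was at 27.7, 29.4 and 28.1 CPM in WT 2 to 4. Its values were 22.6, 16.5 and 22.7 CPM in *Mtm1* KO 9 to 11. The spread was smallest within WT (28.4 ± 0.883 CPM, SD, n = 3). *Clock* values were 12.96, 18.02, 30.5 and 32.3 CPM in WT + TAM 5 to 8 and 12.98, 15.7, 17.6 and 24.6 CPM in *Mtm1* KO + TAM 13 to 16. WT + TAM 5 and 6 and *Mtm1* KO + TAM 13 to 15 were again the low libraries of their groups.

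*Per2* (ENSMUSG00000055866, chr1:91415982-91459324, minus strand), a repressor of the loop, had the widest range of the 10 genes on the scale with a prior count of 2. It was 21.6-fold between WT replicate 4 and WT + TAM replicate 6, against 19.3-fold for *Npas2*. On CPM without the prior count, *Npas2* (0.163 to 4.47 CPM) had a wider range than *Per2* (1.58 to 35.7 CPM). *Per2* was at 5.21, 5.16 and 1.58 CPM in WT 2 to 4 and at 9.53, 6.35 and 8.21 CPM in *Mtm1* KO 9 to 11. No *Mtm1* KO library overlapped with WT. With tamoxifen it was at 27.7, 35.7, 6.998 and 5.21 CPM in WT + TAM 5 to 8 and at 16.8, 19.7, 16.5 and 13.1 CPM in *Mtm1* KO + TAM 13 to 16. All *Mtm1* KO + TAM libraries were above all *Mtm1* KO libraries, whereas WT + TAM ran from the WT level to the highest value of all.

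*Per3* (ENSMUSG00000028957, chr4:151003652-151044665, minus strand) is the member whose promoter window holds the D-box pair. Its levels were 14.99, 12.8 and 5.38 CPM in WT 2 to 4. They were 16.8, 20.5 and 15.2 CPM in *Mtm1* KO 9 to 11, all above WT. The treated libraries had 43.5, 53.5, 16.4 and 14.8 CPM (WT + TAM 5 to 8) and 27.5, 36.4, 27.3 and 15.02 CPM (*Mtm1* KO + TAM 13 to 16). The high libraries were WT + TAM 5 and 6 and *Mtm1* KO + TAM 13 to 15. The other treated libraries lay with the untreated ones.

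*Per1* (ENSMUSG00000020893, chr11:69095217-69109960, plus strand) carries the E-box shown above and also responds quickly to hormones and feeding. In WT 2 to 4 it was at 47.2, 67.3 and 24.8 CPM, and in *Mtm1* KO 9 to 11 at 69.4, 56.4 and 66.8 CPM, within an overlapping range. In WT + TAM 5 to 8 it was at 99.3, 128, 86.6 and 85.4 CPM, and in *Mtm1* KO + TAM 13 to 16 at 59.1, 56.6, 70.8 and 55.4 CPM. All 4 WT + TAM libraries were above every other library. *Per1* therefore did not divide the treated libraries as *Per2* and *Per3* did.

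The cryptochromes, partners of the PER proteins in repression, varied less. The range over the 14 libraries was 3.03-fold for *Cry1* (ENSMUSG00000020038, chr10:85131700-85185064, minus strand) and 2.72-fold for *Cry2* (ENSMUSG00000068742, chr2:92403646-92434043, minus strand). *Cry1* ranged from 9.56 to 14.1 CPM in WT, 10.3 to 21.8 in WT + TAM, 7.14 to 8.95 in *Mtm1* KO and 9.14 to 9.99 in *Mtm1* KO + TAM. It set only WT + TAM replicate 6 apart. *Cry2* was at 24.5, 29.9 and 26.6 CPM in WT 2 to 4 and at 34.7, 36.2 and 39.7 CPM in *Mtm1* KO 9 to 11, all above WT. Under tamoxifen *Cry2* was at 61.5, 65.2, 27.7 and 28.3 CPM in WT + TAM 5 to 8 and at 49.9, 66.7, 45.2 and 34.5 CPM in *Mtm1* KO + TAM 13 to 16. *Cry2* thus divided the WT + TAM libraries in the same way as *Per3*. A processed transcript on the opposite strand, D930015M05Rik, shares 4.67% of the exonic bases of *Cry2*. No source used here gives the strand setting of the counting, so reads there cannot be told apart.

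The REV-ERB receptor genes differed in their pattern over the libraries. *Nr1d1* (ENSMUSG00000020889, chr11:98767932-98775333, minus strand) was at 117, 115 and 145 CPM in WT 2 to 4 and at 112, 108 and 103 CPM in *Mtm1* KO 9 to 11. The treated WT libraries 5 to 8 had 80.6, 61.9, 163 and 149 CPM of it, and the treated knockouts 13 to 16 had 80.5, 69.9, 74.6 and 123 CPM. Its 5 lowest libraries were WT + TAM 5 and 6 and *Mtm1* KO + TAM 13 to 15. *Nr1d2* (ENSMUSG00000021775, chr14:18204054-18239127, minus strand) ranged from 77.5 to 117 CPM in WT, 107 to 211 in WT + TAM, 68.6 to 84.5 in *Mtm1* KO and 88.3 to 105 in *Mtm1* KO + TAM. Its highest value was in WT + TAM replicate 6, where *Nr1d1* was lowest. *Thra*, on the opposite strand, shares 8.55% of the exonic bases of *Nr1d1*. Its reads cannot be told apart from those of *Nr1d1* there if strand was not used.

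The first comparison asked what loss of *Mtm1* does to muscle RNA. In *Mtm1* KO against WT, *Arntl* had a log2 fold change of -1.21 (SE 0.28), with 7.91 ± 2.19 CPM in *Mtm1* KO against 18.6 ± 6.78 in WT (SD, n = 3 each). Its adjusted p in edgeR's quasi-likelihood test was 0.0254, above the study's threshold of 0.01. *Cry2* had a log2 fold change of 0.47 (SE 0.13, adjusted p = 0.0420), *Cry1* of -0.58 (SE 0.19, adjusted p = 0.0747), *Clock* of -0.44 (SE 0.15, adjusted p = 0.0831) and *Per2* of 1.03 (SE 0.39, adjusted p = 0.114). None of the 10 genes passed 0.01, against 531 of 14740 genes tested, or 3.6% of all genes. Before adjustment, 6 of the 10 and 4431 of all genes were at p of 0.05 or less. The ranges of the groups did not overlap for 8 of the 10 genes, *Per1* and *Nr1d2* being the exceptions. The share of all genes without overlap was not counted, so this number is no result about the clock genes as a set. With 3 libraries a group, the exact permutation test cannot go below 0.1. *Arntl* was called by DESeq2 (adjusted p = 0.00037) and by the exact test of edgeR (adjusted p = 0.00143). Scaling by library totals called *Cry2* in its place (log2 fold change 0.79, adjusted p = 0.00324). The sign of *Nr1d1* (-0.20, SE 0.13) depended on the scaling and was 0.11 with library totals alone.

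In WT mice the tamoxifen comparison gave positive log2 fold changes for the *Per*, *Cry* and *Nr1d2* genes and negative ones for the other 4, and no clock gene passed the test. *Per2* differed by 2.25 on the log2 scale (SE 0.70, adjusted p = 0.281), *Per3* by 1.54 (SE 0.50, adjusted p = 0.301) and *Per1* by 1.11 (SE 0.29, adjusted p = 0.176). *Arntl* (-0.87, SE 0.58), *Npas2* (-1.01, SE 0.70) and *Clock* (-0.28, SE 0.27) were on the lower side, each with overlapping groups. *Per1* was the only gene of the 10 with no overlap between WT + TAM and WT, with 99.9 ± 19.96 CPM (SD, n = 4) against 46.5 ± 21.3 (n = 3). The exact two-sided permutation p was 0.0286, the smallest that 3 against 4 libraries allow. It is given for the 1 gene of the 10 picked by its lack of overlap, so it adds no support. How many of all genes lacked overlap here was not counted. Over all genes, 19 of 14544 passed, or 0.131%. Of the 10, edgeR's quasi-likelihood test called 0, with 4 at an unadjusted p of at most 0.05, against 1549 (10.7%) of all genes. Its exact test also called 0, and DESeq2 called *Per1* (adjusted p = 0.00329).

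In *Mtm1* KO mice the same treatment gave *Per1* at 60.5 ± 7.03 CPM (SD, n = 4) against 64.2 ± 6.87 (n = 3) without it, a log2 fold change of -0.10, with a 95% interval from its standard error (normal) of -0.36 to 0.16. *Per2* was higher in 4 of 4 *Mtm1* KO + TAM libraries than in any *Mtm1* KO library, at 16.5 ± 2.72 CPM against 8.03 ± 1.60, a log2 fold change of 1.03 (SE 0.18, adjusted p = 0.125). *Cry1* (0.24, SE 0.15) and *Nr1d2* (0.37, SE 0.12, adjusted p = 0.459) also had groups that did not overlap. Lack of overlap was not counted over all genes here, so it is no result about the clock genes as a set. No gene of 15062 tested passed (0%) in edgeR's quasi-likelihood test, whose lowest adjusted p was 0.0600. Before adjustment, 1137 genes were at p of 0.05 or less, 3 of the 10 clock genes among them. *Per2* was among the 72 genes called by DESeq2 (adjusted p = 0.000253) and the 72 called by edgeR's exact test (adjusted p = 0.000656).

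Whether tamoxifen acted differently on the 2 genotypes was tested as an interaction in 1 fit of the 14 libraries. *Per1* had the lowest adjusted p of the 10 in edgeR's quasi-likelihood test, 0.878. Its difference between the change in *Mtm1* KO and the change in WT was -1.19 on the log2 scale (SE 0.34). No gene of 15556 passed (0%), 664 were at an unadjusted p of at most 0.05, and DESeq2 called 12 genes, with 0 clock genes among them. Averaged over the genotypes, tamoxifen went with a log2 fold change of 1.64 for *Per2* (SE 0.39, adjusted p = 0.0442) and 1.07 for *Per3* (SE 0.31, adjusted p = 0.1003). It was 0.59 for *Cry2* (SE 0.20, adjusted p = 0.171), 0.51 for *Per1* (SE 0.17, adjusted p = 0.165) and 0.44 for *Nr1d2* (SE 0.15, adjusted p = 0.164). These 5 were at an unadjusted p of at most 0.05, as were 2200 of all genes. None of the 10 passed 0.01, against 92 of 15556 genes, or 0.591%. DESeq2 and the fit with no filter on low counts each called *Per2* (adjusted p = 0.00975 and 0.00636).

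**Figure D2:**
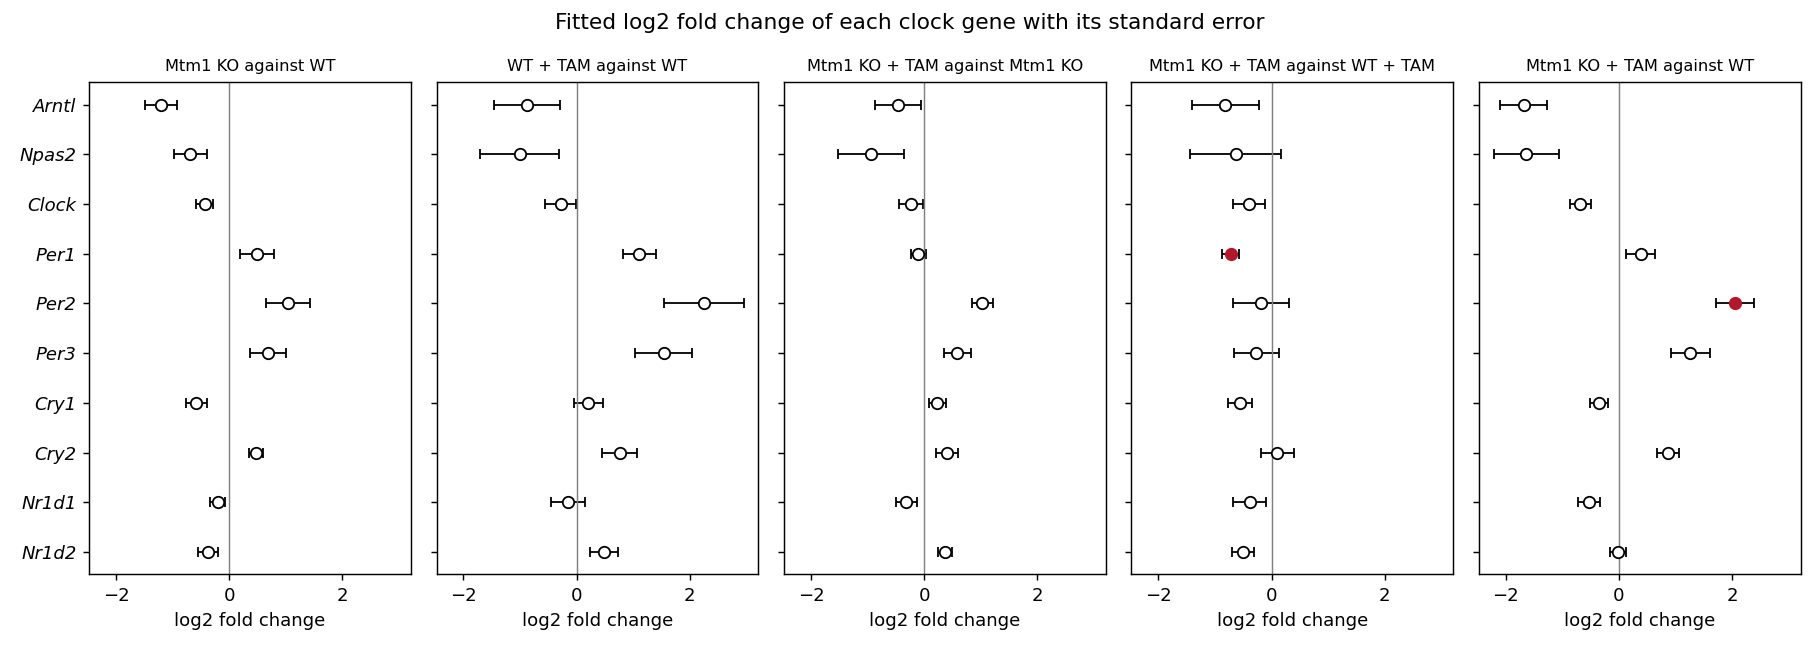
Fitted log2 fold change of each clock gene in the 5 pairwise comparisons, with bars of 1 standard error. Filled points passed an adjusted p of 0.01, which were *Per1* in *Mtm1* KO + TAM against WT + TAM (-0.72) and *Per2* in *Mtm1* KO + TAM against WT (2.05).

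The comparison of the genotypes under tamoxifen gave 1 call. *Per1* fell by 0.72 on the log2 scale in *Mtm1* KO + TAM against WT + TAM (SE 0.15, adjusted p = 0.00706), from 99.9 ± 19.96 to 60.5 ± 7.03 CPM (SD, n = 4 each), and the groups did not overlap. *Cry1* (-0.56, SE 0.21, adjusted p = 0.0940) and *Nr1d2* (-0.50, SE 0.20, adjusted p = 0.105) did not overlap either. For all genes, overlap in this comparison was not counted. *Arntl* had a log2 fold change of -0.81 (SE 0.59), *Per2* of -0.19 (SE 0.49) and *Per3* of -0.27 (SE 0.39), with wide and overlapping groups. Called genes were 979 of 14563 (6.72%), and among the 10 only *Per1* was called. The *Per1* call was lost when any 1 of the 8 libraries was left out (adjusted p from 0.0103 to 0.0243). It was also lost with library totals as the scale (-0.44, adjusted p = 0.0616) and in a fit of all 4 groups (adjusted p = 0.0342). Its direction stayed in each of these.

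The last comparison set *Mtm1* KO + TAM against untreated WT. *Per2* rose from 3.98 ± 2.08 CPM (SD, n = 3) to 16.5 ± 2.72 CPM (n = 4), a log2 fold change of 2.05 (SE 0.34, adjusted p = 0.00272). It was the only gene of the 10 to pass, against 1150 of 14942 genes or 7.7%. *Cry2* (0.86, SE 0.19, adjusted p = 0.0121), *Arntl* (-1.68, SE 0.41, adjusted p = 0.0172), *Clock* (-0.68, SE 0.19, adjusted p = 0.0270) and *Per3* (1.26, SE 0.35, adjusted p = 0.0271) lay between 0.01 and 0.05. Each of these had groups that did not overlap, which was not counted over all genes. *Npas2* had a log2 fold change of -1.64 (SE 0.58, adjusted p = 0.0714). Without *Mtm1* KO + TAM replicate 16 the number called was 6, adding *Arntl*, *Npas2*, *Clock*, *Cry2* and *Nr1d1*. Over all genes 1246 were called without it, the most of any fit that left out 1 library in this comparison. The *Per2* call was lost with the 16 libraries (adjusted p = 0.0102) and in a fit of all 4 groups (adjusted p = 0.0206). The 5 pairwise comparisons share groups, so their values for a gene are not independent.

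The balance of *Arntl* against the *Per* genes was taken as the log2 CPM of *Arntl* minus the mean log2 CPM of *Per1*, *Per2* and *Per3*. It compares genes within a library and does not depend on library scaling. It was -0.30, 0.079 and 2.10 in WT 2 to 4 and -1.66, -1.61 and -0.96 in *Mtm1* KO 9 to 11. With tamoxifen it was -3.61, -4.52, -0.28 and -0.19 in WT + TAM 5 to 8 and -3.73, -2.34, -2.92 and -1.12 in *Mtm1* KO + TAM 13 to 16. The group values were 0.63 ± 1.29 in WT (SD, n = 3), -2.15 ± 2.24 in WT + TAM (n = 4), -1.41 ± 0.39 in *Mtm1* KO (n = 3) and -2.53 ± 1.10 in *Mtm1* KO + TAM (n = 4). The WT and *Mtm1* KO libraries did not overlap, while WT + TAM held both the lowest value of all and values beside those of WT. The ratio had a 20.2-fold range within WT + TAM and a 1.63-fold range within *Mtm1* KO.

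The groups are not spread evenly over the columns of the deposited count table. Columns 2 to 6 hold only libraries with tamoxifen, of both genotypes, so column order and treatment cannot be told apart there. The 5 lowest balances belonged to columns 2 to 6 (*Mtm1* KO + TAM 13, WT + TAM 5, *Mtm1* KO + TAM 14, WT + TAM 6 and *Mtm1* KO + TAM 15). The 3 *Mtm1* KO libraries followed in columns 7 to 9. The remaining libraries of the study were WT 2, WT + TAM 7 and *Mtm1* KO + TAM 16 in columns 10 to 12 and WT 3, WT + TAM 8 and WT 4 in columns 14 to 16, with balances from -1.12 to 2.10. No batch is labelled, no source used here says what the column order records, and its part in the group differences was not tested. WT + TAM 5 and 6 also lay closer to each other than to 7 and 8 over other genes. The 10 clock genes, and the 25 clock partners and regulators and 4 output factors described below, were first removed. On the 1000 most variable genes that remained, the Euclidean distance on log2 CPM was 37.6 between 5 and 6, 33.9 between 7 and 8 and 46.5 to 48.6 across the pairs. *Mtm1* KO + TAM 16 was 36.3 to 43.3 from replicates 13 to 15, which were 32.0 to 38.7 from each other. The untreated WT libraries were 52.5 to 55.8 from each other, farther than the WT + TAM pairs. Those of *Mtm1* KO were 38.8 to 47.4 apart. A distance of this size across the WT + TAM pairs is therefore not particular to that group.

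**Figure D3:**
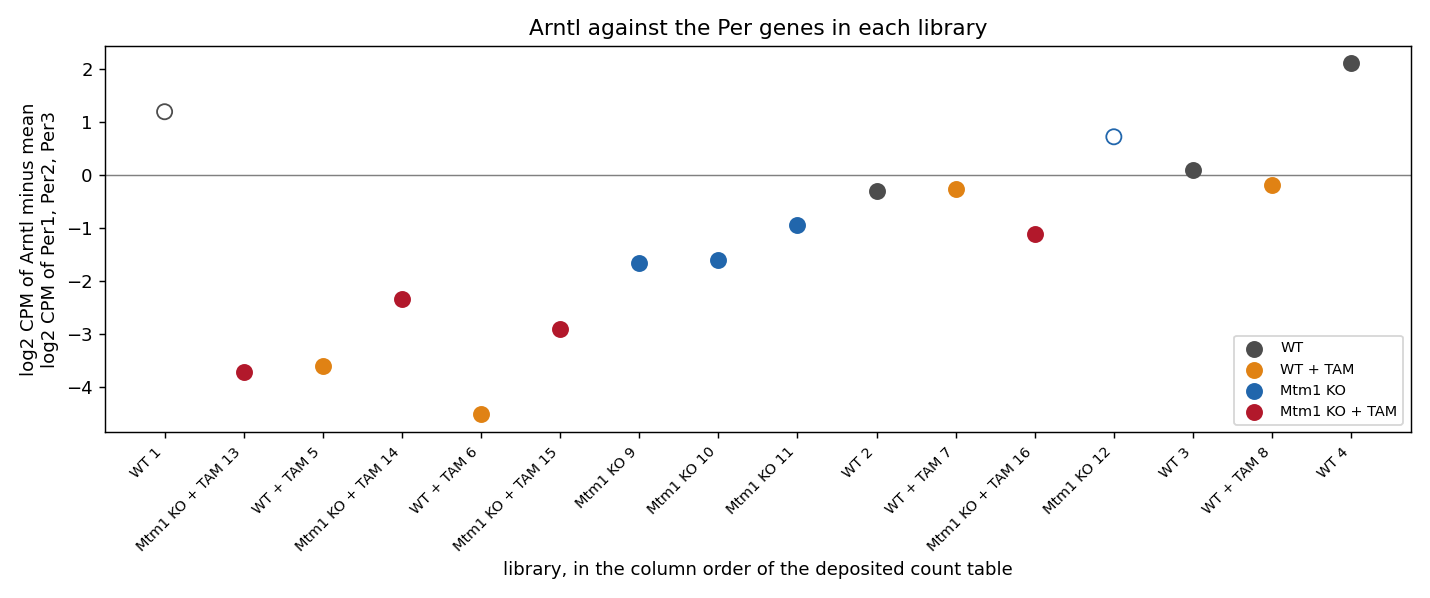
Log2 CPM of *Arntl* minus the mean log2 CPM of *Per1*, *Per2* and *Per3* in each library, in the column order of the deposited count table, with groups as colors and the 2 libraries the study left out as open circles. The libraries in columns 2 to 6, all with tamoxifen, sit between -4.52 and -2.34, below every other library.

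Within groups some of the genes kept an order among libraries that does not rest on the group differences. Over the 18 pairs of libraries that share a group, *Arntl* moved opposite to *Per3* in 15, to *Per1* and to *Per2* in 13 each and to *Cry2* in 12, and with *Npas2* and with *Clock* in 14 each. *Per2* and *Per3* moved together in 16 of 18 pairs, and *Cry2* and *Nr1d1* moved opposite in 16. *Nr1d1* and *Nr1d2*, the paralogs, moved opposite in 14, and *Nr1d1* moved with *Arntl* in 12. Others showed little order with *Arntl*, which moved opposite to *Nr1d2* in 10 of 18 pairs and to *Cry1* in 7. These pairs share libraries and are counts, with no test.

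Across all genes *Npas2* and *Clock*, whose proteins pair with ARNTL, and the repressor gene *Nr1d1* were among those most like *Arntl*. Over the 14 libraries and 15555 other genes, Pearson's r of log2 CPM with *Arntl* was 0.89 for *Npas2* (rank 6 from the top), 0.88 for *Clock* (rank 7) and 0.86 for *Nr1d1* (rank 13). It was -0.85 for *Per2* (rank 6 from the bottom), -0.85 for *Per3* (rank 7) and -0.82 for *Cry2* (rank 21). *Per1* (-0.48), *Nr1d2* (-0.30) and *Cry1* (-0.01) were in the body of the distribution. With group means subtracted, r was 0.87 for *Npas2* (rank 17 from the top), 0.85 for *Nr1d1* (rank 33), 0.83 for *Clock* (rank 49), -0.83 for *Per3* (rank 23 from the bottom), -0.79 for *Per2* (rank 55) and -0.72 for *Cry2* (rank 164). It was -0.55 for *Nr1d2* (rank 929 from the bottom), -0.46 for *Per1* (rank 1568) and -0.35 for *Cry1* (rank 2679). Without that subtraction, the genes with the highest r were *Sash1* (0.92), *E2f3* (0.91), *Fam20c* (0.91), *Sh3bp5* (0.90) and *Gm7785* (0.89). Those with the lowest were *Tspan4* (-0.92), *Baz1b* (-0.89), *Mid1ip1* (-0.86), *Glul* (-0.86) and *Rprml* (-0.85). *Rprml* and *Gm7785* were near 0 in places (0 to 0.567 and 0.101 to 1.23 CPM). *Tspan4* ran from 9.38 to 37.8 CPM, and *Glul*, the glutamine synthetase gene, from 161 to 1100.3 CPM. The points share libraries, depth and groups.

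**Figure D4:**
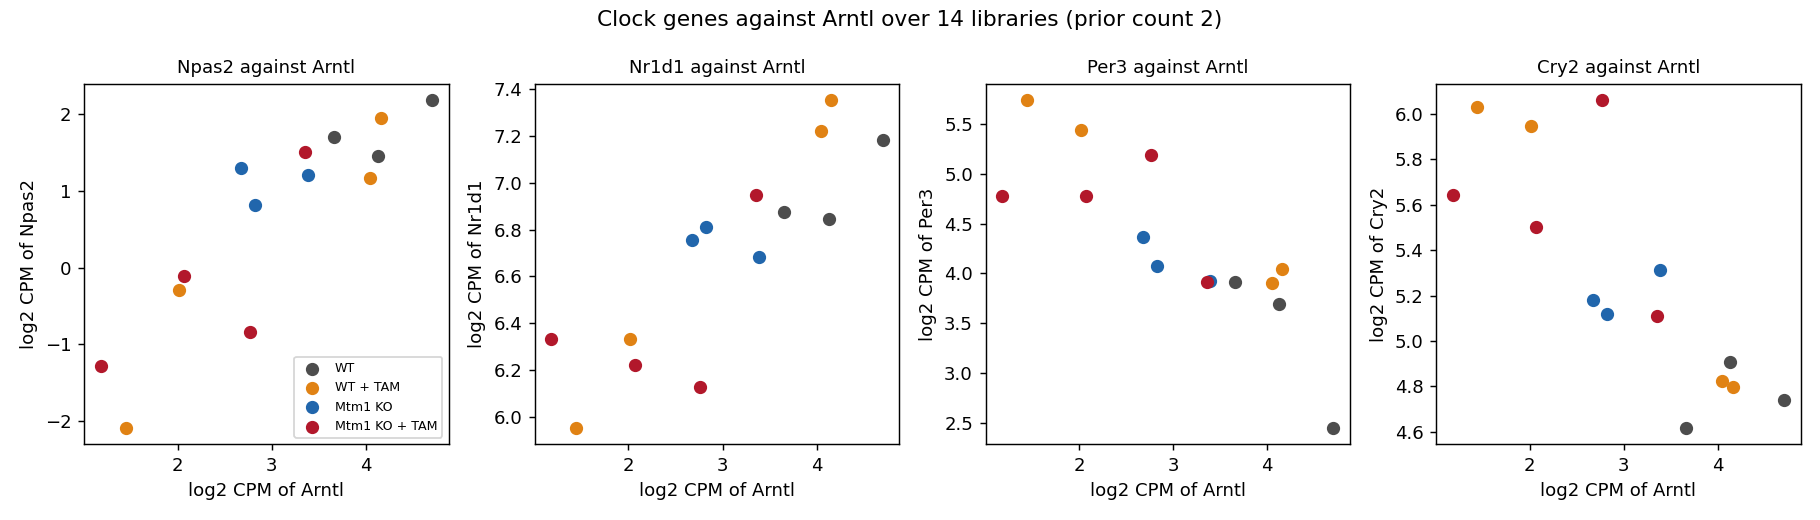
Log2 CPM of *Npas2*, *Nr1d1*, *Per3* and *Cry2* against that of *Arntl* in the 14 libraries of the study (prior count 2), colored by group. *Npas2* and *Nr1d1* are high where *Arntl* is high (r = 0.89 and 0.86), and *Per3* and *Cry2* are high where it is low (r = -0.85 and -0.82).

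The spread between libraries of a group was large for 4 of the 10 genes. The within-group SD of log2 CPM was 1.20 for *Npas2*, 0.96 for *Arntl*, 0.89 for *Per2* and 0.70 for *Per3*, against a median of 0.27 over 15556 genes. A larger one was found for 1.06%, 3.70%, 5.16% and 11.7% of genes, in that order. It was 0.44 for *Cry2*, 0.43 for *Nr1d1*, 0.42 for *Clock*, 0.38 for *Per1*, 0.30 for *Cry1* and 0.30 for *Nr1d2*, with 28.8% to 45.1% of genes above them.

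Output factors that bind D-boxes were high in the same treated libraries as *Per3*. *Dbp* was at 71.3, 87.9 and 29.9 CPM in WT 2 to 4 and at 119.8, 130.3 and 60.8 CPM in *Mtm1* KO 9 to 11. It reached 219, 225, 98.6 and 101 CPM in WT + TAM 5 to 8 and 172, 128, 115 and 98.2 CPM in *Mtm1* KO + TAM 13 to 16. WT + TAM 5 and 6, the highest for *Per3*, were also the highest for *Dbp*, whose r with *Arntl* was -0.82 (rank 22 from the bottom). *Hlf* divided WT + TAM likewise, with 23.2, 32.5, 8.08 and 6.997 CPM in replicates 5 to 8. *Nfil3* did not, with 35.2 to 44.2 CPM. Of the 4 output factors (*Dbp*, *Tef*, *Hlf*, *Nfil3*), 0 passed 0.01 in each comparison by edgeR's quasi-likelihood test. At an unadjusted p of at most 0.05 there were 2 in *Mtm1* KO + TAM against *Mtm1* KO and 1 in WT + TAM against WT, where 7.55% and 10.7% of all genes were. All 4 had positive log2 fold changes in both of these, with medians of 0.46 and 0.62, against medians of -0.0095 and -0.0036 over all genes.

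Of 25 clock partners and regulators, 23 or 24 were tested in each comparison. In *Mtm1* KO against WT, edgeR's quasi-likelihood test called 1 of 24, where it called 3.6% of all genes. This was *Prkaa1*, which rose (0.75, SE 0.14, adjusted p = 0.00998), a catalytic subunit of AMPK, the kinase that marks CRY for degradation. *Prkaa1* was at 30.7 ± 3.52 CPM in *Mtm1* KO and 18.6 ± 1.54 in WT (SD, n = 3 each). The more abundant *Prkaa2*, the other catalytic subunit, was lower in *Mtm1* KO (155 ± 23.4 CPM) than in WT (243 ± 24.7) and was not called. Against WT, 3 of 24 fell in *Mtm1* KO + TAM, where 7.7% of all genes were called. They were *Bhlhe41* (-0.85, SE 0.12, adjusted p = 0.00119), a repressor that competes for E-boxes, *Prkaa2* (-0.61, SE 0.12, adjusted p = 0.00632) and *Rorb* (-2.93, SE 0.60, adjusted p = 0.00748, at 0.681 CPM in WT). No list gene passed in the other 3 pairwise comparisons by edgeR's quasi-likelihood test, with 3 of 23 (*Mtm1* KO + TAM against *Mtm1* KO), 9 of 24 (WT + TAM against WT) and 9 of 23 (*Mtm1* KO + TAM against WT + TAM) at an unadjusted p of at most 0.05. Over all genes that share was 7.55%, 10.7% and 32.3%. The *Prkaa1* call in *Mtm1* KO against WT was lost with the 16 libraries and without any 1 of WT 2 to 4, *Mtm1* KO 9 or *Mtm1* KO 11. The 3 calls in *Mtm1* KO + TAM against WT became 1 or 2 without any single library and 0 with the 16 libraries.

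Genes of other daily signals were counted beside the clock genes. For scale, edgeR's quasi-likelihood test called 3.6% of all genes in *Mtm1* KO against WT and 0.131% in WT + TAM against WT. It called 6.72% in *Mtm1* KO + TAM against WT + TAM and 7.7% in *Mtm1* KO + TAM against WT. Of 17 glucocorticoid and fasting genes, *Mt1* (3.29, SE 0.31) and *Mt2* (4.81, SE 0.44) rose in *Mtm1* KO against WT (adjusted p = 0.000602 and 0.000583). *Sgk1* and *Ucp3* fell in *Mtm1* KO + TAM against WT + TAM (-0.94 and -1.07, adjusted p = 0.00333 and 0.00322). All 4 were also called in *Mtm1* KO + TAM against WT, and 0 of 17 passed in either tamoxifen comparison, where 4 (*Mtm1* KO) and 11 (WT) were at an unadjusted p of at most 0.05, against 7.55% and 10.7% of all genes. Both calls against WT + TAM were lost without *Mtm1* KO + TAM 13 or 15. Of 9 temperature-linked genes, *Hspb1* rose in the 3 comparisons of *Mtm1* KO + TAM or *Mtm1* KO with WT or WT + TAM (1.27, 1.42 and 1.33) and *Hsp90aa1* in *Mtm1* KO against WT (0.88). Of 9 immediate early genes, *Egr1* rose in the same 3 comparisons (1.82, 2.39 and 1.24), *Junb* rose (1.98) and *Nr4a1* fell (-0.76) in *Mtm1* KO + TAM against WT + TAM, and *Atf3* rose (2.14) in *Mtm1* KO + TAM against WT. Of 4 estrogen and progesterone receptor genes, *Pgr*, the progesterone receptor, had 0 CPM in WT and was called at 1.73 CPM in WT + TAM and 0.861 CPM in *Mtm1* KO + TAM, and *Esr1* fell in *Mtm1* KO + TAM against WT + TAM (-0.92) and against WT (-0.92). The *Pgr* call in WT was lost without any 1 of its 7 libraries and in both RPKM fits, and the *Esr1* call against WT + TAM without any 1 of WT + TAM 6 to 8 or *Mtm1* KO + TAM 13 to 15. The *Egr1* call in *Mtm1* KO against WT was lost without WT 2 or WT 3, and that of *Hspb1* in *Mtm1* KO + TAM was lost against WT without WT 2 and against WT + TAM without *Mtm1* KO + TAM 15. The part of these signals in the clock gene values was not tested.

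The 2 libraries that the study left out lay toward the *Arntl*-high side. The library labelled WT replicate 1 had a balance of 1.19 and *Mtm1* KO replicate 12 of 0.71, above all libraries but WT replicate 4. *Per2* was at 1.24 and 1.81 CPM in them, *Nr1d2* at 42.3 and 26.3 CPM, below all 14 others, and *Clock* at 9.96 and 10.4 CPM, also below all 14 others although *Arntl* was at 14.2 and 11.8 CPM. *Npas2* was at 2.42 CPM in the first and 8.71 CPM in the second, the highest of all 16. With both included, r of *Clock* with *Arntl* was 0.51 (rank 607 of 15388 genes), and the log2 fold change of *Npas2* in *Mtm1* KO against WT turned from -0.68 to 0.26.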

How the data were processed

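RNA from quadriceps of 16 mice was sequenced, and 2 deposited tables with 41388 genes were used. The deposited counts are whole reads per gene with no scaling, which the authors obtained with HTSeq after a 2-step STAR alignment to GRCm38. The deposited RPKM values are the same counts per library size and gene length. The submitters' processing notes also list STAR 2.5.0c, bcl2fastq 2.17 and Cufflinks 2.2.1. No source used here gives the annotation, counting mode or strand setting. No 2 libraries of the 120 pairs were identical, and 0 rows lacked a gene. The labels tell the samples apart only by number, and the study counts n in its mouse experiments as single mice. The tests set group differences against the spread between these mice.

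Counts of the groups compared were tested with edgeR 4.0.16 (R 4.3.3; TMM, filterByExpr with a minimum count of 10 and a minimum total of 15, quasi-likelihood test, Benjamini-Hochberg over all genes tested, called at 0.01 as the study did). The averaged and interaction effects came from 1 fit of 4 groups. The alternatives tried were edgeR's exact test, DESeq2 1.42.0, RLE and library size scaling, no filter, a threshold of 0.05, limma 3.58.1 on log2(RPKM + 0.1) and log2(RPKM + 1), 1 fit of all groups, the 16 libraries and leaving out each library. CPM values of the 2 libraries left out come from scaling all 16. The test was tested on simulated data. The clock genes and the gene lists were chosen with earlier results of these data known. All 10 clock genes were named, and of each list the called genes, at most 4 a comparison, and the 5 genes most and the 5 least like *Arntl*. Some members of the lists are not reported here. *Dbp*, *Tef*, *Hlf* and *Nfil3* are described outside this rule, chosen after their values were seen. Exon overlaps and gene positions are from GENCODE vM21 (GRCm38).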

Additional observations from a re-analysis of the deposited data

Results flagged for a closer look

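*Clock* in the library labelled WT replicate 1 lay far from the other WT libraries. Its level was 3.326 on the log2 CPM scale (9.956 CPM), against 4.775 to 4.858 in WT replicates 2 to 4, a gap of 0.946 of the range of the group. This library also carried *Mtm1* at the level of the knockout. Of the 44 groups of 4 libraries checked in this way (the 10 clock genes and the *Arntl* against *Per* balance in 4 groups), 1 was far enough out, and chance gives about 1 in 20.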

How the results depend on the processing

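No paired analysis was possible because the groups share no replicate numbers. The number of clock genes called in *Mtm1* KO against WT was 0, and it was 1 with DESeq2, edgeR's exact test, library totals, no filter and both RPKM fits, and 2 at a threshold of 0.05. For tamoxifen it was 1 with DESeq2 and the exact test in *Mtm1* KO, and 1 with DESeq2 in WT. For *Mtm1* KO + TAM against WT it was 1 in the report's test, 4 with DESeq2, 5 with the exact test, no filter or a threshold of 0.05, 3 with library totals, 2 with the RPKM fits and 0 with the 16 libraries or 1 fit of all groups, and 1 to 6 when single libraries were left out. Between the genotypes under tamoxifen it went from 1 to 0 with library totals, both RPKM fits and 1 fit of all groups, and was 0 without any single library. For tamoxifen over both genotypes it was 1 with DESeq2, no filter and a threshold of 0.05. For the interaction it was 0 in each alternative run. The numbers of all genes called moved more: in the order of the knockout comparison, tamoxifen in *Mtm1* KO, tamoxifen in WT, the genotypes under tamoxifen, and *Mtm1* KO + TAM against WT, DESeq2 called 1678, 72, 214, 1995 and 2375, the exact test 1452, 72, 178, 1826 and 2091, no filter 1096, 12, 81, 1243 and 1792, and leaving out a library 182 to 363, 0 to 1, 2 to 21, 424 to 921 and 531 to 1246. With 16 libraries 211, 0, 12, 979 and 297 were called. With library totals as the scale, 88% of the 1163 calls in *Mtm1* KO against WT were higher, against 53.1% of 531 with TMM. The same share was 88.4% against 50.9% in *Mtm1* KO + TAM against WT + TAM and 84.1% against 46.3% in *Mtm1* KO + TAM against WT.

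The difference in the *Arntl* against *Per* balance between *Mtm1* KO and WT was -2.04 and became -0.90 with *Nr1d1* and *Nr1d2* in place of the *Per* genes. Between *Mtm1* KO + TAM and WT + TAM it was -0.38 and ranged from -1.17 to 0.28 when single libraries were left out, positive without WT + TAM replicates 7 (0.25) or 8 (0.28) or *Mtm1* KO + TAM replicate 13 (0.02). The share of library pairs in which *Npas2* moved opposite to *Arntl* was 22.2% and ranged from 12.5% to 26.7%.

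Signs turned for some log2 fold changes, none of them called. In *Mtm1* KO against WT, *Nr1d1* was 0.11 with library totals and 0.12 in both RPKM fits, and *Npas2* 0.26 with 16 libraries. For tamoxifen in *Mtm1* KO, *Per1* was 0.065 with 16 libraries. In *Mtm1* KO + TAM against WT + TAM, *Per2* was 0.090 with library totals and 0.49 and 0.27 in the RPKM fits, and *Per3* 0.014, 0.15 and 0.088. In *Mtm1* KO + TAM against WT, *Nr1d2* was 0.27 with library totals, 0.28 and 0.27 in the RPKM fits and 0.20 with 16 libraries. For the interaction, *Cry1* was -0.021 with library totals, and with 16 libraries *Npas2* was -0.87, *Clock* -0.010 and *Cry1* -0.00485. The cause of these was not tested.

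Leaving out single libraries also turned signs. The ranges in WT + TAM against WT were -0.082 to 0.33 for *Cry1* and -0.37 to 0.060 for *Nr1d1*. Between the treated genotypes they were -0.50 to 0.31 for *Per2*, -0.51 to 0.090 for *Per3*, -1.60 to 0.11 for *Npas2* and -0.078 to 0.32 for *Cry2*, and in *Mtm1* KO + TAM against WT -0.16 to 0.13 for *Nr1d2*. For the interaction they were -0.89 to 0.82 for *Npas2*, -0.085 to 0.34 for *Cry1*, -0.25 to 0.17 for *Nr1d2*, -0.14 to 0.25 for *Clock* and -0.38 to 0.067 for *Nr1d1*.

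*Npas2*, *Per2* and *Arntl* had as few as 4, 40 and 65 counts in a library, which limits their precision, and each group had 3 or 4 libraries.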
